A study of Mus musculus with 6 samples.

Results

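The 33 genes described here encode the enzymes of glycolysis, the carriers that bring glucose into a cell and lactate out of it, and proteins that cells make when oxygen is scarce. They were listed by name, with no threshold on a measured value but with earlier results of these data known, and all 33 were found among the 20649 genes of the count matrix, where they held 1.26% of all UMIs. Cells carrying CD45, the surface protein of white blood cells, were enriched from CT26 tumors and profiled by single-cell RNA sequencing (scRNA-seq), which counts captured transcripts by their unique molecular identifiers (UMIs). CT26 is a mouse colon carcinoma line, of which 500000 cells had been placed under the skin of BALB/c mice, the strain it comes from. By the labels, 3 tumors were given exoASO-STAT6, exosomes that carry an antisense oligonucleotide against the transcription factor STAT6, which acts downstream of interleukin-4. The other 3 were given exoASO-Scramble, with a control oligonucleotide. Each tumor received 3 injections into the tumor and was collected 24 hours after the last. By the study's methods the mice were female and were bought at 6 to 8 weeks of age.

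All 9235 barcodes (droplets, each taken as 1 cell) lie in 1 matrix, and each barcode ends in a number from 3 to 8 that matches no sample label. These 6 numbers were taken as 6 libraries of unknown treatment. No value below compares exoASO-STAT6 with exoASO-Scramble, and because the matrix counts as 1 pooled sample, no test was made. Libraries held from 11492757 to 33902084 UMIs, and 16 barcode sequences occurred in 2 libraries. Levels are UMIs per 10000 UMIs of a class of barcodes, with exact Poisson intervals at 95% that cover counting error only, and the spread over libraries is given beside them. Because each transcript is counted once at its 3′ end, levels do not scale with transcript length and can be set side by side between genes, although capture differs between transcripts.

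Cells obtain ATP from glucose by glycolysis alone or pass its product, pyruvate, on to the mitochondria. When oxygen is low, prolyl hydroxylases (Egln1, Egln3) no longer mark the transcription factor HIF-1α, the product of Hif1a, for destruction, and it accumulates and binds short DNA elements near its target genes. Its known targets include most glycolytic enzymes, the glucose transporter Slc2a1, the kinase Pdk1, which keeps pyruvate out of the mitochondria, the mitophagy genes Bnip3 and Bnip3l, and Vegfa, which draws in blood vessels. Inflammatory activation also raises HIF-1α and glycolysis in macrophages. Nos2, inducible nitric oxide synthase, is made by macrophages in response to such inflammatory signals and is widely taken as a marker of that state.

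The element bound by HIF-1α holds the letters ACGTG or GCGTG, so the sequence upstream of the genes was searched for both, on both strands. RefSeq promoter windows on GRCm38.p6, the 250 bases before each annotated start, were found for 30 of the 33 genes (Ero1l under its current symbol, Ero1a), and those of Slc2a3, Bnip3l and Ndrg1 were not matched. ACGTG was present for 19 of 30 genes (63.3%) against 18.5% of 27025 genes in the same table, and GCGTG for 20 (66.7%) against 30.9%. At least 1 of the pair was present for 27 (90%) against 41.5%. Counted by window, since a gene can have several, ACGTG was in 51.2% of the 41 windows of these genes and either motif in 80.5%, against 16.6% and 38.6% of 32851 windows in all. The genes' windows were richer in G and C, with a median of 62.8% against 52.4%, and the quartiles of their share of G and C were 55.6 and 68.4%. Of the 22 windows of these genes between those quartiles, 54.5% held ACGTG and 86.4% either motif, against 21.8% and 55.7% of the 9498 windows of all genes in that range. These matches describe letters and not binding. The windows of 6 genes are printed because these genes, which hold ACGTG, recur in the results that follow. Capitals mark ACGTG or its reverse complement, CACGT, and where both overlap they form CACGTG, which counts once on each strand.
Bnip3: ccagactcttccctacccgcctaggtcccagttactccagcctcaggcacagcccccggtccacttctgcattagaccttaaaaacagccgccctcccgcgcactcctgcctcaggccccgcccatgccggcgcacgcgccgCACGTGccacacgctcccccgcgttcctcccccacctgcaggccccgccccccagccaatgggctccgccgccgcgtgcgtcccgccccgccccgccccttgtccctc
Egln3: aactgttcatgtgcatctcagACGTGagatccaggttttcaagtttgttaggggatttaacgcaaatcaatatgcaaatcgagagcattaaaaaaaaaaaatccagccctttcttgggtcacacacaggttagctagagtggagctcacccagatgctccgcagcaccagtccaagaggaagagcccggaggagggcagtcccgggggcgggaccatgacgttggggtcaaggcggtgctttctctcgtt
Ankrd37: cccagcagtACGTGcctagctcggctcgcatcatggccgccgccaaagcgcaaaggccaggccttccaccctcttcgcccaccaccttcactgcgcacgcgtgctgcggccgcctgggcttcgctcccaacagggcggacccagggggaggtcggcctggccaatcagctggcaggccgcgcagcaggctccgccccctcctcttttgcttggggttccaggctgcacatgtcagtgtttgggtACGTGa
Ldha: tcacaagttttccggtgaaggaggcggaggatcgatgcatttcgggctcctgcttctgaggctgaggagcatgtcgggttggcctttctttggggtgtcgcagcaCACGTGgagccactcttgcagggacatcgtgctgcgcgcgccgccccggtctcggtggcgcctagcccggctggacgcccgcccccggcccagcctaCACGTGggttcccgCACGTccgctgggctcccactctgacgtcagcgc
Pgk1: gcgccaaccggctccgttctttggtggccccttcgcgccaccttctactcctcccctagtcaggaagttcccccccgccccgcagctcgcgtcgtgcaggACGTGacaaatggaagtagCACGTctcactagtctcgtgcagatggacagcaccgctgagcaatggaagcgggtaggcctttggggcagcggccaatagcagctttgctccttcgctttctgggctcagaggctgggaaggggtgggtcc
Slc16a3: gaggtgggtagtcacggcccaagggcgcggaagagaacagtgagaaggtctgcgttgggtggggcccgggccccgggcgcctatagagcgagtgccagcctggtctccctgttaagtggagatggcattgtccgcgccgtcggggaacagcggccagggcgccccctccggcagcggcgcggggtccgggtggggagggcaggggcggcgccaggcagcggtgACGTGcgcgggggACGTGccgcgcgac

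The windows run 5′ to 3′ on the strand of the gene. They lie at chr7:138909507-138909756 for Bnip3 (minus strand), chr12:54203875-54204124 for Egln3 (minus), chr8:45999851-46000100 for Ankrd37 (minus), chr7:46845554-46845803 for Ldha (plus), chrX:106186850-106187099 for Pgk1 (plus) and chr11:120948817-120949066 for Slc16a3 (plus). In the GENCODE annotation of the same build, the windows of Pgk1 and Egln3 touched no gene. The window of Bnip3 shared 13 bases with its first exon. Those of Ldha, Slc16a3 and Ankrd37 lay inside the span of the gene, which has further starts upstream, and shared 0, 14 and 17 bases with an exon. By the GENCODE annotation (release M21) the 33 genes lie on 15 chromosomes. The protein-coding genes of this set span chr7:138890836-138909519 (Bnip3), chr12:54178981-54203860 (Egln3), chr7:46841475-46855627 (Ldha), chrX:106187100-106203699 (Pgk1), chr11:120948480-120960868 (Slc16a3) and chr8:45996902-46005707 (Ankrd37). In Bnip3 the CACGTG begins 108 bases before the start. Ldha has matches at 3 places, beginning 145, 48 and 34 bases before its start, and those of Pgk1 begin at 150 and 131. Slc16a3 carries its pair close to the start, at 27 and 14 bases. Egln3 has a single match, 229 bases away.

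Barcodes were classed by their UMIs of a few genes. Macrophages had at least 3 UMIs of Csf1r and Adgre1 together, no UMI of Cd3e, Ncr1 or Flt3, and under 5 of S100a9, and numbered 4016 (43.5% of all). Within them, a barcode was called high for Mmp12 (macrophage elastase), C1qa (a chain of complement C1q), Ly6c2 (a marker of monocytes) or Rsad2 (an antiviral gene induced by interferon) when its level lay at or above the 75th percentile of its library's macrophages with at least 3 UMIs, and it was high for only 1 of these genes. This gave 360, 767, 537 and 291 barcodes, with 608 high for several and 1453 for none. The other macrophages of each comparison below hold the 608 as well, 279 of which lay at or above the bound for Mmp12. The remaining classes were neutrophil barcodes (692), dendritic barcodes (147), CD8 T barcodes (165), regulatory T barcodes (Treg, 34) and NK barcodes (315), and 3866 barcodes met none of the definitions. Of 2455 barcodes with a UMI of Cd3e or Ncr1, 1797 also had one of Csf1r or Adgre1, so the lymphocyte classes were limited to those without. Marker lists, which hold the genes of the gates among others, followed the names for most classes. The summed macrophage list of 9 genes was at 152 UMIs per 10000 in macrophages and at 3.27, 5.25 and 17.0 in CD8 T, NK and dendritic barcodes. The neutrophil class carried both sets of markers, with the neutrophil list at 59.1 against 1.46 in macrophages, and the macrophage list at 128. Of its 692 barcodes, 571 had at least 3 UMIs of Csf1r and Adgre1, so the class is called S100a9-high below. Markers of tumor epithelium were at or under 0.168 UMIs per 10000 in all classes, and Krt8 and Cldn4 were at 0 in macrophages.

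In macrophages the 33 genes summed to 129.8 UMIs per 10000 (129.5 to 130.1). By library the sum was 143.0, 135.2, 97.5, 141.8, 127.8 and 133.1 in the order of the suffixes, so library 5 was the lowest and the other 5 lay between 127.8 and 143.0. Gapdh, which makes the first high-energy intermediate of the pathway, was the most abundant at 31.7. Pkm (pyruvate kinase, the last step) followed at 16.3, then Aldoa (aldolase) at 9.42, Ldha (which turns pyruvate into lactate) at 9.09, Pgam1 at 7.95, Pgk1 at 7.60, and Mif, a secreted cytokine, at 7.44. The 14 glycolytic enzymes made up 102.1 of the sum. Next to them, the oxygen-sensing genes summed to 3.71, mostly Hif1a itself at 2.73, and the mitophagy genes to 3.43. At the low end were Adm (adrenomedullin, a peptide that widens vessels) at 0.0494, P4ha2 (a collagen prolyl hydroxylase) at 0.0911 and the glucose transporter Slc2a3 at 0.0358, all under the minimum of 0.1 that was set for comparing a gene. The main glucose transporter of macrophages in these counts was Slc2a1, at 1.51. Of the hexokinases, Hk2 was at 1.51 and Hk1 at 0.586, below Hk3, which is not among the 33 genes, at 1.66, and of the phosphofructokinases, Pfkp was at 1.64 and Pfkl at 0.724. The hypoxia-induced genes were led by Ndrg1 at 4.25, Bnip3 at 2.0 and Vegfa at 1.71, and the regulators Pfkfb3 (0.504) and Pdk1 (0.223) were low. Between libraries, Egln3 varied most among the genes above the minimum, 3.68-fold from 0.119 in library 5 to 0.439 in library 6, and Pfkp, a phosphofructokinase, varied least at 1.17-fold. Several glycolytic genes, Gapdh among them, have near-identical processed pseudogenes, so part of their reads may have been lost or shared in counting.

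**Figure D1:**
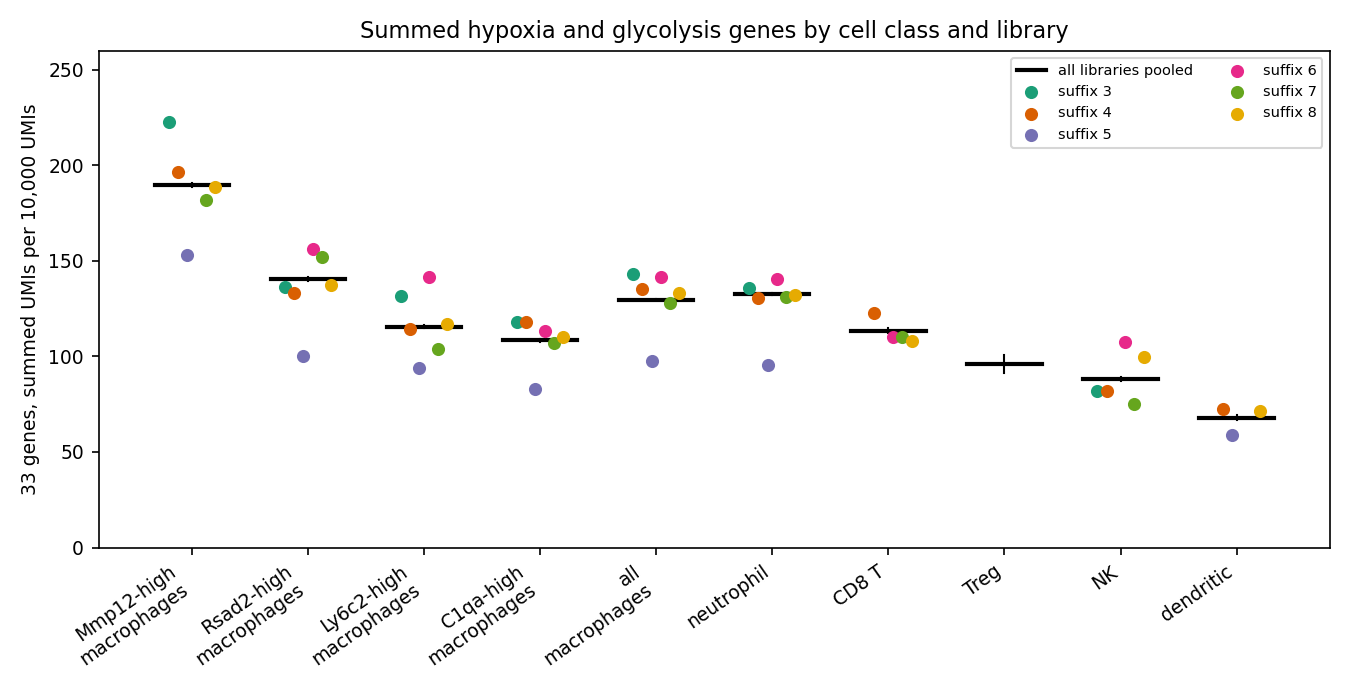
Summed UMIs of the 33 genes per 10000 UMIs (vertical axis) in each class of barcodes (horizontal axis). Points are libraries with at least 20 barcodes of the class, bars are all libraries pooled with the exact 95% Poisson interval, and Treg has no library with 20 barcodes. The class drawn as neutrophil is the S100a9-high class. Mmp12-high macrophages are the highest at 189.6 and dendritic barcodes the lowest at 67.9, and library 5 is the lowest of the macrophage points.

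Macrophages high for Mmp12 carried more of these transcripts than the other macrophages. Their sum was 153.1 to 222.6 UMIs per 10000 over the 5 libraries with at least 20 such barcodes, and 189.6 pooled, against 123.1 in the other macrophages. The ratio was 1.49 to 1.73 by library with a median of 1.56, above 1 in 5 of 5. Library 6 held 16 Mmp12-high barcodes and enters only the pooled values. A gene was counted as higher or lower when its pooled ratio was at least 1.5-fold and its direction was the same in each library with at least 20 barcodes on both sides. By this rule 19 of the 32 genes above the minimum were higher and 0 lower, where 2.69% of 7617 genes in all were higher and 4.4% lower. With every barcode at or above the Mmp12 bound taken as high, whatever its other genes, the log2 ratio of the sum was 0.66 in place of 0.64 and 20 genes were higher. Adm and P4ha2, which are among the 19, reached the minimum only in the Mmp12-high barcodes and could be counted only as higher. The median log2 ratio over the genes was 0.69, against -0.12 over all genes compared. The macrophage list (144.1 against 152.9, in 4 of 5 libraries) and the fibroblast list (0.121 against 0.165, in 5 of 5) were lower in Mmp12-high barcodes, as were the B list (0.0957 against 0.171) and the dendritic list (13.3 against 14.1), each higher in 1 of 5, and their part was not tested. Ribosomal protein genes were higher there, at 1312 against 1226 UMIs per 10000, and mitochondrial genes lower, at 385.0 against 401.6, each in 5 of 5, and with mitochondrial and ribosomal genes taken out of the denominator the log2 ratio of the sum was 0.64, as with them, and 20 genes in place of 19 were higher.

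The widest ratios were outside glycolysis proper. Ndrg1, a stress-induced gene used as a marker of hypoxia, stood at 12.8, 10.4, 9.37, 5.57 and 9.14 UMIs per 10000 in the Mmp12-high barcodes of libraries 3, 4, 5, 7 and 8, and at 3.68 in the other macrophages pooled, a ratio of 2.53 (2.45 to 2.61). Bnip3, which directs mitochondria to degradation, stood at 5.61, 4.29, 3.67, 3.16 and 4.15 against 1.77 (ratio 2.33, 2.23 to 2.44). Every one of these library values lay above the pooled level of the other macrophages. Egln3 ranged from 0.271 in library 7 to 1.08 in library 3 against 0.212, a ratio of 2.31 pooled that went from 1.32 to 10.6 by library. Adm had a ratio of 5.17 (4.04 to 6.60) at a level of 0.180, P4ha2 one of 3.51 at 0.255, and Ankrd37, a small ankyrin protein, one of 2.74 at 0.932. The ratio of Ero1l, an oxidase of protein folding, was 2.16, that of Ddit4, an inhibitor of mTORC1, 2.18, and that of Vegfa 1.81. Bnip3l, a relative of Bnip3, was at 1.68 and Egln1 at 1.64, whereas Mif (1.43) and P4ha1 (1.32) were higher in 5 of 5 libraries without reaching 1.5-fold.

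Slc2a1, 1 of 2 transporters above the minimum, and 6 of the 14 glycolytic enzymes were counted as higher as well. Slc2a1 stood at 4.12, 2.99, 2.11, 2.88 and 2.91 in the same libraries against 1.35 pooled in the other macrophages (ratio 2.22, 2.10 to 2.33). Ldha stood at 15.1, 14.0, 11.5, 12.8 and 12.8 against 8.62 (ratio 1.53), and Gapdh at 45.4 pooled against 30.1 (ratio 1.51). Aldoc (1.87), Gpi1 (1.69), Pgk1 (1.66) and Aldoa (1.58) were also past 1.5-fold, and so was Pdk1 (1.85). Slc16a3 (1.38) and Pfkfb3 (1.34), which makes the activator of phosphofructokinase, were not. The other 8 enzymes, from Pkm at 1.28 to Eno1 at 1.49, were higher in 5 of 5 libraries without reaching it. Hif1a did not move with its targets, at 2.56 against 2.75, with a ratio above 1 in 2 of 5 libraries.

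**Figure D2:**
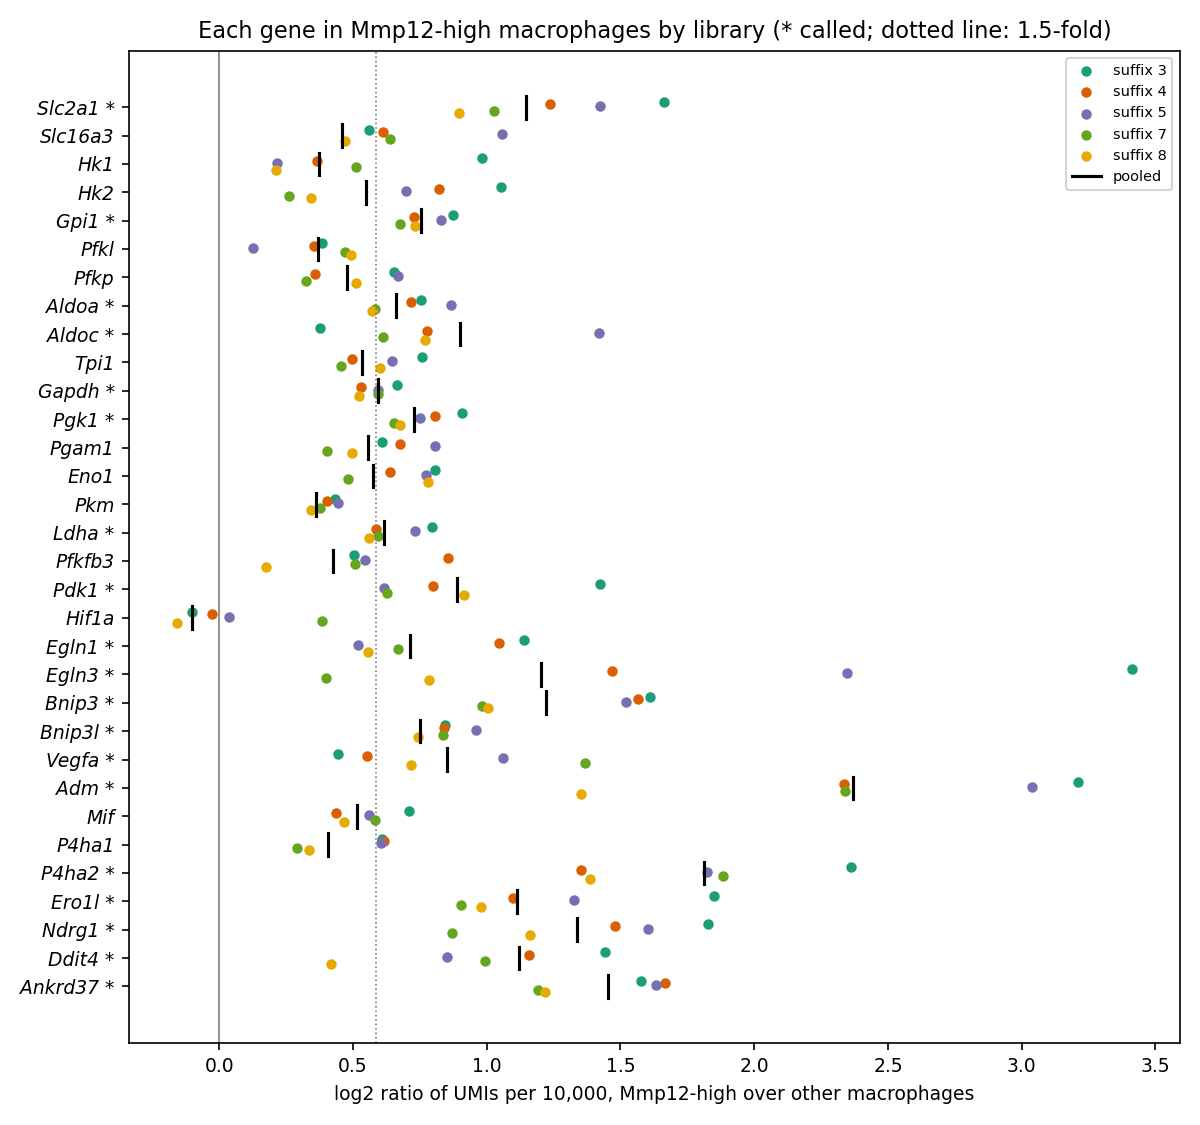
Log2 ratio of UMIs per 10000, Mmp12-high over other macrophages (horizontal axis), for each gene with at least 0.1 UMIs per 10000 on one side (rows). Points are libraries, black bars are all libraries pooled, asterisks mark genes counted as higher, and the dotted line is 1.5-fold. Library points of Gapdh lie between 1.44 and 1.59-fold, whereas those of Egln3 spread from 1.32 to 10.6-fold, and Hif1a lies on both sides of 0.

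C1qa-high macrophages lay on the other side. They summed to 108.4 UMIs per 10000 against 136.1 in the other macrophages, with a ratio of 0.75 to 0.85 by library, below 1 in 6 of 6. Of 31 genes above the minimum, 13 were lower and 0 higher, where 6.51% of 7740 genes in all were lower and 1.77% higher. The median log2 ratio was -0.53 against 0.03 over all genes. By definition the other macrophages held all 360 Mmp12-high barcodes. A second reading took every barcode at or above the C1qa bound as high, whatever its other genes. The log2 ratio of the sum was then -0.20 in place of -0.34, and 11 genes were lower. Egln3, Ddit4 and P4ha2, which are among the 13, reached the minimum only in the other macrophages and could be counted only as lower. Egln3 was at 0.0522 against 0.295, a ratio of 0.177 (0.137 to 0.225), and Ddit4 at 0.0335 against 0.166 (0.203). Bnip3 ranged from 0.861 to 1.55 over the libraries, below its range in the Mmp12-high barcodes, and its ratio was 0.468. Ero1l (0.412), Vegfa (0.444), Slc2a1 (0.446), Ndrg1 (0.486), Ankrd37 (0.514), the lactate exporter Slc16a3 (0.539) and Hif1a (0.544) were also lower. So were P4ha2, Bnip3l and the hexokinase Hk2. Of the 14 enzymes Hk2 alone passed 1.5-fold, whereas Gapdh (0.867), Ldha (0.884) and Pkm (0.876) were below 1 in 6 of 6 libraries and well within 1.5-fold. C1qa-high barcodes were deeper, with a median of 16363 UMIs against 11721, and carried more of the macrophage list (214 against 134) and less of the neutrophil list (0.808 against 1.66) and the Treg list (0.139 against 0.259), both lower in 6 of 6 libraries, and of the NK (0.377 against 0.644) and CD8 T lists (0.0656 against 0.122), lower in 5 of 6, and the part of these lists was not tested. Dividing-cell markers were at 5.63 against 4.09, higher in 5 of 6, and among macrophages with no UMI of one the log2 ratio of the sum was -0.35 and 12 genes were lower. Mitochondrial (467.8 against 379.9) and ribosomal protein transcripts (1333 against 1206) were also higher there, and with both taken out of the denominator the log2 ratio of the sum was -0.30 in place of -0.34, and the count of lower genes was 13 in both cases. With each gene given equal weight instead of the sum, the mean log2 difference was -0.49.

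Ly6c2-high and Rsad2-high macrophages differed less. For Ly6c2 the sum was 115.6 against 131.4, and 1 gene was higher and 0 were lower of 30, where 3.88% and 5.76% of 7661 genes were, so the count was no more than the share over all genes. The gene counted was Hif1a, at 2.77 to 6.73 over 6 libraries with a median ratio of 1.59 and 4.19 pooled against 2.56. Of the 30 genes, 5 had a pooled ratio above 1 and 25 below. Besides Hif1a, those above were Slc16a3 (1.29), Vegfa (1.24), Ddit4 (1.21) and Slc2a1 (1.09), and among those below were Bnip3 (0.755), Pgk1 (0.786) and Ldha (0.803), none of which reached 1.5-fold. The sign of the summed difference depended on how barcodes were gated, with a log2 ratio of -0.17 as defined and 0.11 when the gates were read at 3000 UMIs per barcode, which left 3 libraries in place of 6 with 20 barcodes. Dividing-cell markers were lower in Ly6c2-high barcodes (1.57 against 4.77), and among macrophages with no UMI of a dividing marker 0 genes were counted as higher and 3 as lower. Dendritic markers were higher (20.6 against 13.2) and the macrophage list lower (128.6 against 154.7), each in 6 of 6 libraries, and their part was not tested. Mitochondrial (351.8 against 405.5) and ribosomal protein genes (1129 against 1247) were also lower in 6 of 6, and without them in the denominator the log2 ratio of the sum was -0.20, with 1 gene higher and 1 lower. For Rsad2 the sum was 140.6 against 129.0. The ratio was 0.95 to 1.21 by library with a median of 1.03, above 1 in 4 of 6. Here 2 of 30 genes were higher and 0 lower, where 1.9% and 0.996% of 7632 genes were. Those were Ero1l (2.38 against 1.42) and Pfkfb3 (0.733 against 0.487), and without library 7 or without library 8 a single gene was counted. With a macrophage gate of 6 UMIs 0 genes were higher. Egln3 had a pooled ratio of 2.31 there, but lay above 1 in 4 of 6 libraries. Rsad2-high barcodes carried more of the neutrophil list (2.68 against 1.38, higher in 5 of 6 libraries), the Treg list (0.399 against 0.220, in 6 of 6) and the fibroblast list (0.322 against 0.149, in 5 of 6), and less of the macrophage list (108 against 155, higher in 0 of 6). The CD8 T list was at 0.135 against 0.107, higher in 5 of 6, and the B list (0.0748 against 0.170) and the dendritic list (12.1 against 14.1) were each higher in 1 of 6. The part of these lists was not tested. Ribosomal protein genes were at 1047 against 1249, and with them and mitochondrial genes out of the denominator 1 gene was higher and 1 lower.

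Nos2 went with higher levels of these genes inside macrophages. Nos2 stood at 0.373, 0.518, 0.104, 1.91, 1.47 and 0.713 UMIs per 10000 of macrophages in libraries 3 to 8, so library 6 was the highest and library 5 the lowest. Over 3972 macrophage barcodes thinned to 3000 UMIs each, the sum of the 33 genes had a Spearman's rho with Nos2 of 0.33 (median of 6 libraries, 0.10 to 0.47), lowest in library 5. Of single genes, the median rho was 0.14 over the 30 of this set above the minimum and -0.01 over all 7405 compared. These are descriptions over barcodes that share libraries and tumors. By gene, rho was highest for Bnip3 (0.32), Ndrg1 (0.29), Gapdh (0.25), Ero1l (0.23) and Pgk1 (0.23). P4ha1 (0.033) and Aldoc (0.043) had the lowest values. All 30 genes above the minimum after thinning had a median rho above 0, and the range of 11 of them over libraries reached below 0. The summed level had a median rho of 0.02 with the UMI total of a barcode (-0.03 to 0.17 over libraries).

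**Figure D3:**
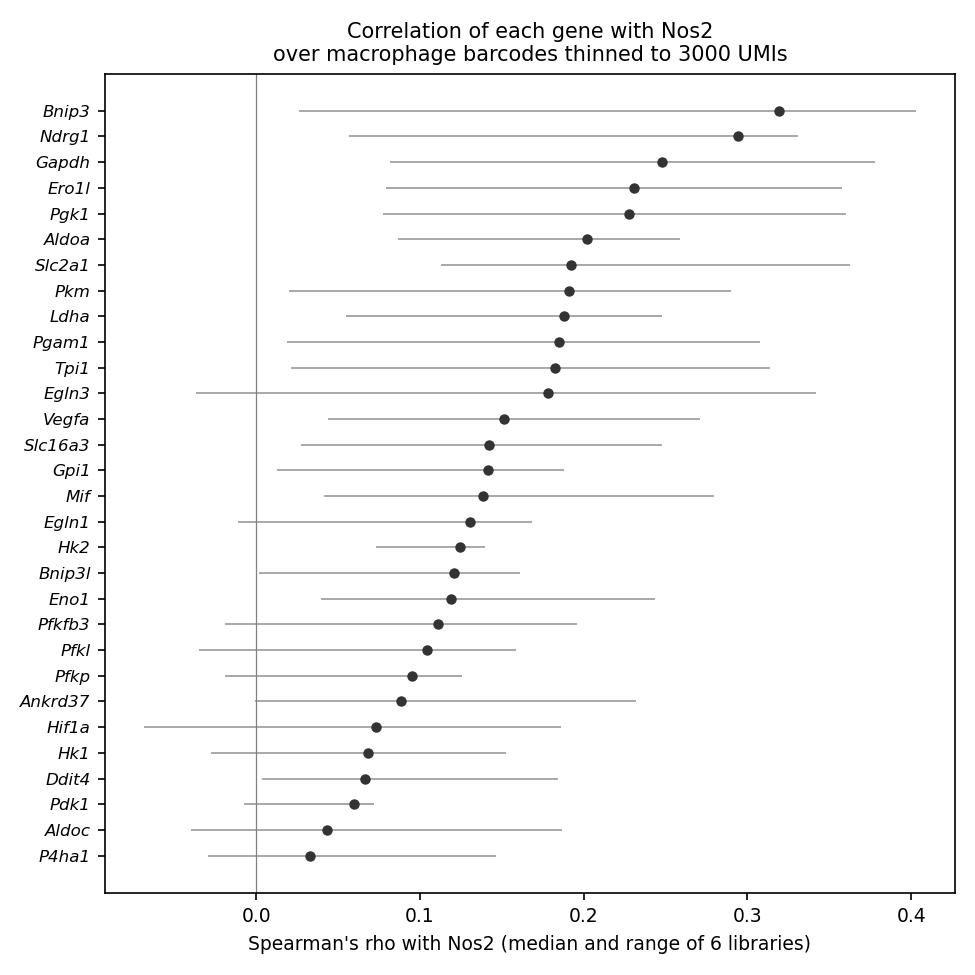
Spearman's rho of each gene (rows, in order of the median) with Nos2 (horizontal axis) over macrophage barcodes thinned to 3000 UMIs. Points are medians and lines are ranges over the 6 libraries. Bnip3 (0.32) and Ndrg1 (0.29) are at the top, and P4ha1 (0.033) and Aldoc (0.043) at the bottom.

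Set against the 3137 macrophages with no Nos2 UMI, the 771 at or above the 75th percentile of their library with at least 1 UMI (Nos2-high) had a sum of 185.0 against 113.9 UMIs per 10000. In 4 libraries (3, 4, 5 and 8) any barcode with a Nos2 UMI was thereby Nos2-high, and 200 of the 771 had a single UMI. A Nos2 UMI was found in 21.9% of macrophages, at a median of 12590 UMIs, and in 4.24% of CD8 T and 3.17% of NK barcodes, which should lack it, at medians of 9457 and 6771. Thinned to 3000 UMIs each, the shares were 12.3, 0.654 and 1.49%. With at least 2 UMIs asked of the Nos2-high barcodes, a setting chosen after seeing the data, the log2 ratio of the sum was 0.81 in place of 0.70 and 25 genes in place of 20 were higher, over 5 libraries. The ratio was 1.63 (median, 1.36 to 1.74), above 1 in 6 of 6 libraries. Of 32 genes, 20 were higher and 0 lower, where 2.72% of 7634 genes were higher and 3.77% lower, and the median log2 ratio was 0.76 against -0.15 over all genes. Adm (5.95) and P4ha2 (2.50), which are among the 20, reached the minimum on the Nos2-high side alone and could be counted only as higher. Ratios of single genes below are pooled unless given by library, and can hold differences between libraries. Library 5, the lowest for the sum, gave 32 of the 771 Nos2-high barcodes and 747 of the 3137 with no Nos2 UMI. Of the oxygen-sensing genes, Egln3 was at 0.679 against 0.116 (ratio 5.87, 2.25 to 9.28 by library) and Egln1 at 1.94 times its level without Nos2, whereas Hif1a was at 3.40 against 2.53 (1.34) and above 1 in 5 of 6 libraries. Both mitophagy genes were higher, Bnip3 at 4.22 against 1.40 (ratio 3.03, 2.35 to 3.79 by library) and Bnip3l at 2.19 against 1.2 (1.83). Ero1l, at 3.44 against 0.949, had a ratio of 3.63 that ran from 2.06 to 4.98 by library. The transporter Slc2a1 was at 2.96 against 1.12 (2.64), and the lactate exporter Slc16a3 at 2.44 against 1.35 (1.81). Ndrg1 (2.40), Ankrd37 (2.02), Pfkfb3 (1.90) and Vegfa (1.75) were also higher. Among enzymes Hk2 (1.75), Pgk1 (1.70), Aldoa (1.61), Gapdh (1.59), Eno1 (1.59) and Tpi1 (1.58) were higher. Ddit4 had a pooled ratio of 1.83 but lay above 1 in 5 of 6 libraries and was not counted. Hk1, at 1.29 in the comparison by Mmp12, was counted here at 1.69, though the difference between the comparisons was not tested. Pkm (1.42), Ldha (1.47), Pgam1 (1.49), Gpi1 (1.45) and Mif (1.45) were among those above 1 in 6 of 6 libraries that did not reach 1.5-fold.

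**Figure D4:**
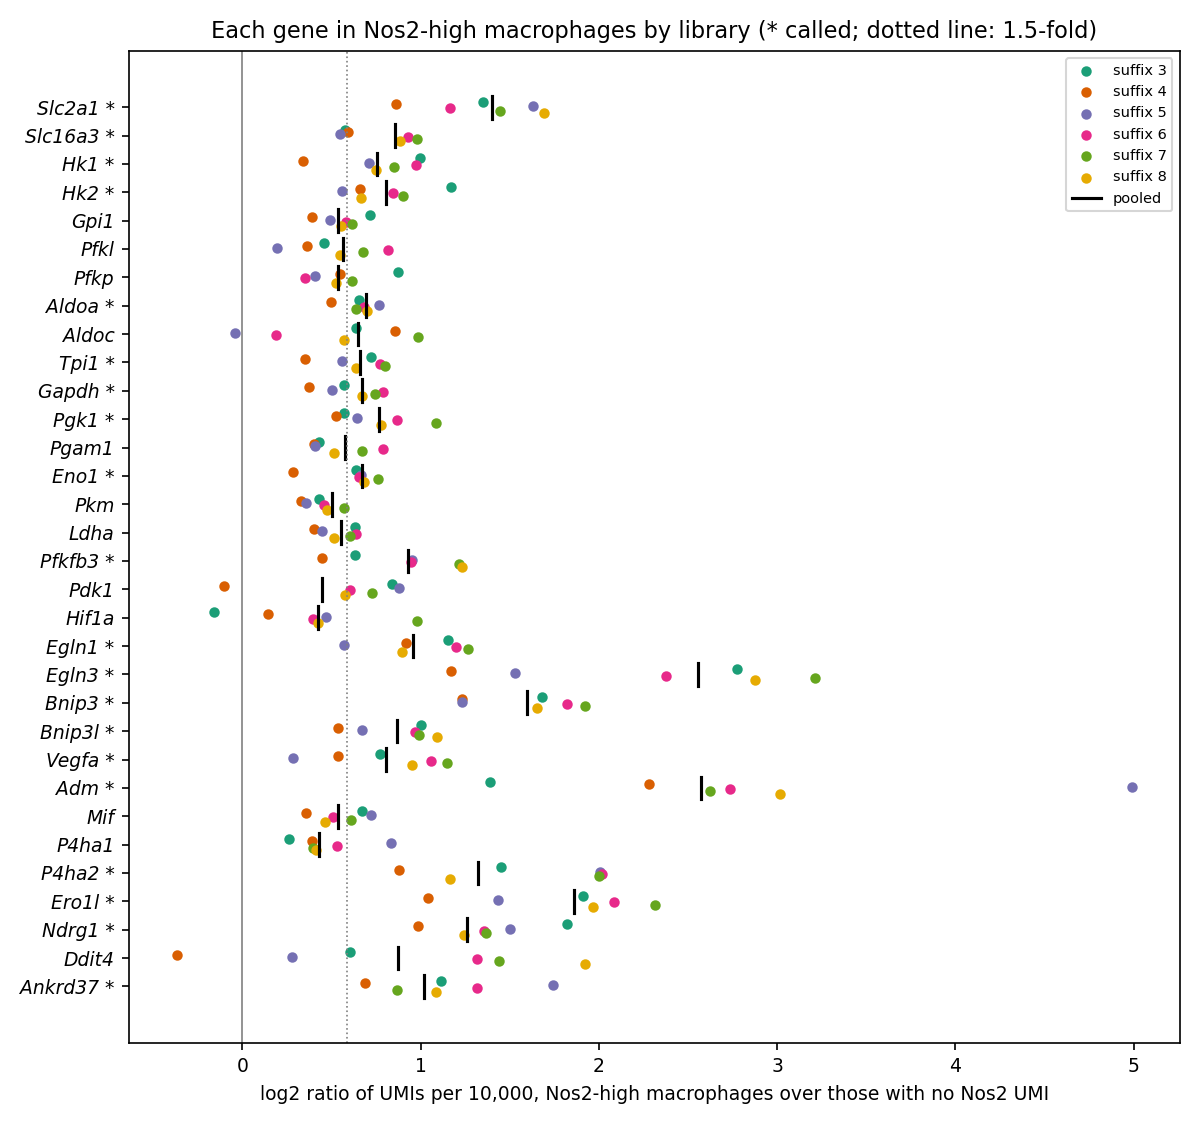
Log2 ratio of UMIs per 10000, Nos2-high macrophages over those with no Nos2 UMI (horizontal axis), for each gene with at least 0.1 UMIs per 10000 on one side (rows). Points are the 6 libraries, black bars are all libraries pooled, asterisks mark genes counted as higher, and the dotted line is 1.5-fold. All library points of Bnip3 lie at or above 2.35-fold, while those of Hif1a, Pdk1, Aldoc and Ddit4 lie on both sides of 0.

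Mmp12-high and Nos2-high macrophages overlapped in part, as 33.9% of the former were Nos2-high, beside 771 of all 4016 macrophages. The share was 7.95% of the C1qa-high, 15.6% of the Ly6c2-high and 35.4% of the Rsad2-high. It was 35.7% of those high for several of these genes and 12.7% of those high for none. Macrophages were therefore also split by both, a split chosen after the values above had been seen. Here a barcode at or above the Mmp12 bound counted as high whatever its other genes. The 231 barcodes high for both summed to 214.9 UMIs per 10000, with 208.1 to 249.4 over the 4 libraries with at least 20 of them. The 408 high for Mmp12 alone of the pair had 159.4 (136.2 to 180.2 over 6 libraries), and the 540 high for Nos2 alone 168.5 (112.1 to 195.5 over 6). The 2837 barcodes high for neither had 108.0 (87.7 to 123.9 over 6), a range that overlapped that of Nos2 alone and lay below the other 2. These ranges also hold differences between libraries, as the 4 groups were not compared within libraries. The range of the barcodes high for both came from libraries 3, 4, 7 and 8 alone, without library 5, the lowest for the sum. Other marker lists moved with Nos2. From macrophages with no Nos2 UMI to the Nos2-high, the neutrophil list went from 1.22 to 2.21 and was higher in 5 of 6 libraries, and the Treg list from 0.211 to 0.303, also in 5 of 6. The macrophage list went from 155.5 to 142.5, ribosomal protein genes from 1276 to 1103 and mitochondrial genes from 409.4 to 370.1 UMIs per 10000, each lower in 6 of 6. The part of the marker lists was not tested beyond the neutrophil genes. In macrophages without a UMI of any neutrophil marker, the log2 ratio of the sum was 0.76 for Mmp12, with 3 libraries in place of 5 holding 20 barcodes, and 0.83 for Nos2, with 5 in place of 6. In all macrophages it was 0.64 and 0.70. With mitochondrial and ribosomal genes taken out of the denominator, the log2 ratio for Nos2 was 0.68, and the count of higher genes was 20 in both cases.

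Other genes of the same pathways, read as a comparison list, moved in part. Of 19 further glycolysis and hypoxia genes above the minimum (of 31 present), 5 were higher and 0 lower in Mmp12-high macrophages, 5 and 0 in Nos2-high, and 0 and 4 in C1qa-high macrophages. Of all genes compared, 2.69% were higher for Mmp12, 2.72% higher for Nos2 and 6.51% lower for C1qa. The median log2 ratio over the 19 was 0.02 for Mmp12, 0.22 for Nos2 and -0.34 for C1qa, beside -0.12, -0.15 and 0.03 over all genes. Eno2 (a second enolase), Mxi1 (a repressor that opposes MYC) and Ak4 (a mitochondrial adenylate kinase) were in all 3 of these sets, although Ak4 reached the minimum on its higher side alone each time, which fixed its direction. For Nos2, Eno2 had a ratio of 3.03, at 0.417 against 0.137. The 19 genes of the tricarboxylic acid cycle, which burns pyruvate in mitochondria, had 0 higher in any of the 3. In Nos2-high macrophages Fh1 (0.548), Idh3a (0.628) and Suclg2 (0.634) were lower, where 3.77% of all genes were, with a median log2 ratio of -0.33 over the 19. In Mmp12-high macrophages 0 of the 19 were counted in either direction, with a median of -0.25 beside -0.12 for all genes. The pentose phosphate pathway, which branches off glycolysis to make NADPH, had 0 of 7 genes counted for Mmp12 and C1qa, and 1, Rpia, lower for Nos2, beside the same 3.77%.

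S100a9-high barcodes, most of which carried macrophage markers, had a sum of 132.6 and a ratio to macrophages that lay on both sides of 1 over the 6 libraries. In a split chosen after seeing the data, the sum was 130.1 (129.4 to 130.7) in the 571 with at least 3 UMIs of Csf1r and Adgre1 and 167.9 (162.9 to 173.1) in the 37 with none, whose median was 6555 UMIs against 16798. The CD8 T list (0.229 against 0.109) and the Treg list (0.319 against 0.232) were higher than in macrophages in 5 of 6 libraries, dividing-cell markers (3.13 against 4.44) lower in 5 of 6 and dendritic markers (9.93 against 14.0) in 6 of 6, and their part was not tested. Ribosomal protein genes were at 1127 against 1235, lower in 5 of 6, and without them and mitochondrial genes the log2 ratio of the sum was -0.03 in place of -0.02. Of 31 genes 3 were higher and 0 lower, where 2.12% and 0.132% of 7603 genes were. Slc2a3, the high-affinity glucose transporter, was at 0.151, 0.247, 0.266, 0.242, 0.172 and 0.215 in libraries 3 to 8 against 0.0253 to 0.0559 in macrophages, with no overlap and a pooled ratio of 5.96 (4.95 to 7.17). In the same split it was at 0.20 (0.175 to 0.227) in the 571 barcodes and at 0.524 (0.279 to 0.897) in the 37, from 13 UMIs. Slc2a3 passed the minimum only on this side, as it did in all further classes, so it could be counted only as higher. Egln3 was at 1.89 pooled and 1.04 to 1.81 by library, and Ero1l at 1.54 pooled and 1.04 to 1.74 by library. The pooled ratio of Egln3 lay above every library's own, since the libraries gave unequal numbers of barcodes to the pair of classes.

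Dendritic barcodes had the lowest sum, 67.9 UMIs per 10000, with 72.4, 58.7 and 71.7 in the 3 libraries with at least 20 barcodes. The ratio to macrophages was 0.523 pooled, which lay below the 0.535 to 0.602 of the libraries' own ratios. Ribosomal protein genes were higher there (1741 against 1235 UMIs per 10000) and mitochondrial genes lower (355.8 against 399.9), each in 3 of 3 libraries, and with both taken out of the denominator the log2 ratio of the sum was -0.81 in place of -0.89 and the count of lower genes 20 in place of 21. The Treg list (1.65 against 0.232) and the CD8 T list (0.615 against 0.109) were also higher in 3 of 3, and their part was not tested. Of 31 genes 21 were lower and 4 higher, where 19.2% of 8316 genes were lower and 17.2% higher. Slc16a3 (0.234), Vegfa (0.273), Bnip3 (0.275), Ankrd37 (0.336), Hk1 (0.371), Eno1 (0.375), Pkm (0.376) and Tpi1 (0.382) had the lowest ratios. The 4 higher genes were Slc2a3 (3.58), Ddit4 (2.83), Pfkp (1.95) and Pfkfb3 (1.86). Pfkp stood at 3.21 against 1.64 UMIs per 10000, while Pfkl, the liver-type phosphofructokinase, stood at 0.384 against 0.724.

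In CD8 T barcodes the sum was 113.5 UMIs per 10000 against 129.8 in macrophages. Dividing-cell markers were at 12.1 against 4.44, the NK list at 12.2 against 0.583 and the Treg list at 9.56 against 0.232, each higher in 4 of 4 libraries, and their part was not tested. Ribosomal protein genes took 2501 of 10000 UMIs in CD8 T barcodes and 1235 in macrophages, and with mitochondrial and ribosomal genes taken out of the denominator the log2 ratio of the sums went from -0.26 to -0.00018. No direction is therefore given for the sum. Single genes stood far apart. Of 31 genes 3 were higher and 14 lower, where 27.2% and 26.3% of 8580 genes were. Slc2a3 stood at 0.686, 0.863, 0.680 and 0.930 in libraries 4, 6, 7 and 8, all above its highest macrophage value of 0.0559, with a pooled ratio of 23.1 (18.7 to 28.5). Slc2a1 was lower, at 0.633 against 1.51 (0.419), so the order of the pair of transporters was reversed in the pooled counts and in libraries 4, 7 and 8, but not in library 6, where Slc2a1 was at 0.967 and Slc2a3 at 0.863. Ddit4 stood at 1.34, 1.49, 1.56 and 1.62 against 0.0859 to 0.253 in macrophages (ratio 11.7), and Hif1a at 4.73 against 2.73 (1.73). Lower were Vegfa (0.0685), Ndrg1 (0.223), Bnip3 (0.244), Egln3 (0.255), Slc16a3 (0.309), P4ha1 (0.363), Hk2 (0.379) and Pfkfb3 (0.395) among others. Egln3 and Pdk1 reached the minimum only in macrophages here and could be counted only as lower. The same held for Aldoc and Egln3 in the comparison with NK barcodes, and for Aldoc and Pdk1 in that with Treg barcodes. Gapdh (1.06), Eno1 (1.11) and Ldha (1.26, 1.12 to 1.40 by library) were within 1.5-fold. When barcodes with Csf1r or Adgre1 UMIs were let into the class, 1 gene in place of 14 was lower, with 5 libraries in place of 4. When gates were read at 3000 UMIs per barcode, 8 genes were lower.

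NK barcodes had a lower sum than macrophages, 88.0 UMIs per 10000, with a ratio of 0.57 to 0.76 over 5 libraries. Of 31 genes 2 were higher and 13 lower, where 20.5% and 27.1% of 8359 genes were. Slc2a3 stood at 0.171 to 0.652 (ratio 9.79) and Ddit4 at 0.571 to 1.09 (6.39) over those libraries, with no overlap with macrophages. Hk2 (0.207), Pfkfb3 (0.250), Slc16a3 (0.265), Ndrg1 (0.274), Bnip3 (0.278) and Ankrd37 (0.333) had the lowest ratios of the genes above the minimum. Vegfa, at 1.05, was higher than the 0.117 of CD8 T barcodes, though this pair was not compared by library. The Treg list (5.21 against 0.232) and the CD8 T list (0.501 against 0.109) were higher there in 5 of 5 libraries and dividing-cell markers (6.41 against 4.44) in 4 of 5, and their part was not tested. With Csf1r- or Adgre1-carrying barcodes let in, 0 genes in place of 13 were lower, and with gates read at 3000 UMIs 6 were. Both settings had 6 libraries in place of 5. Ribosomal protein genes took 2356 of 10000 UMIs there, and without them and mitochondrial genes the log2 ratio of the sum was -0.49 in place of -0.72.

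The 34 Treg barcodes had 1 to 10 in a library and a median of 3019 UMIs each, so their values are pooled and rest on few counts. Their sum was 95.9 UMIs per 10000, and its log2 ratio to macrophages, -0.44, went to 0.0077 with gates read at 3000 UMIs per barcode. Dividing-cell markers (13.3 against 4.44) and the CD8 T list (23.6 against 0.109) were also higher, and their part was not tested. Ribosomal protein genes were at 1708 against 1235, and without them and mitochondrial genes the log2 ratio of the sum was -0.36. By fold alone 5 of 31 genes were higher and 16 lower, where 38.8% and 27.6% of 8960 genes were, the largest shares of the classes compared. With gates read at 3000 UMIs 5 genes in place of 16 were lower, and with Csf1r- or Adgre1-carrying barcodes let in 0 were. Hif1a was at 8.69 (7.38 to 10.2) against 2.73 in macrophages, Ddit4 at 1.51 (0.998 to 2.20), Slc2a3 at 0.954 (0.556 to 1.53) and Egln3 at 0.673 (0.348 to 1.18). Bnip3l, at 2.47 against 1.42, was the fifth. Of the 16 lower genes, Pfkfb3, Pdk1, Aldoc and Ankrd37 had ratios whose intervals included 1.

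**Figure D5:**
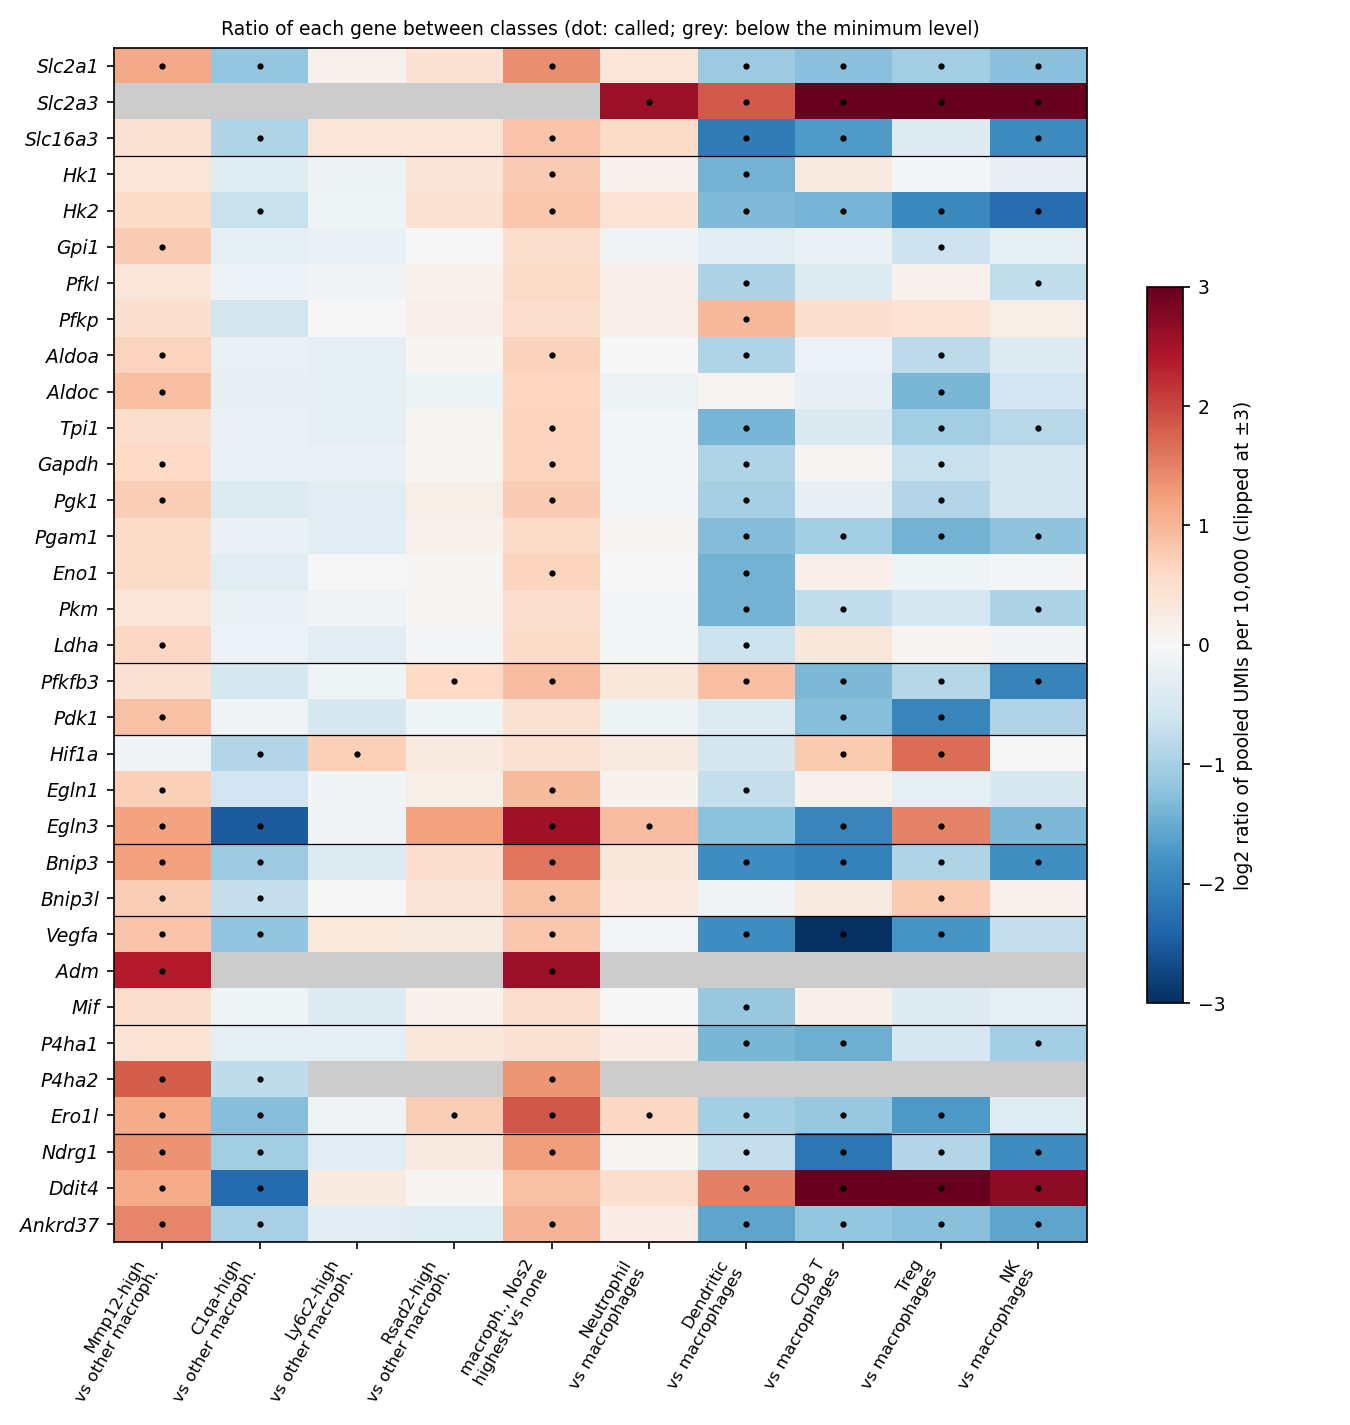
Log2 ratio of pooled UMIs per 10000 for each gene (rows, grouped by role) in 10 comparisons (columns), shown by color and clipped at 3 in both directions. Dots mark genes counted as higher or lower, and grey marks genes under 0.1 UMIs per 10000 on both sides. The columns for Mmp12 and Nos2 are red in nearly all rows and the C1qa column blue. Slc2a3 and Ddit4 are red in the dendritic, CD8 T, Treg and NK columns, and Slc2a3 also in that of the S100a9-high class.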

How the data were processed

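Per the labels and the study's methods, CD45+ cells were enriched from digested CT26 tumors with a positive selection kit and sequenced as 10x Genomics 3′ libraries. The submitters' processing notes name Cell Ranger 1.2, Seurat 3.1.5 and R 4.0.1, with the mm10 genome. The authors deposited 1 matrix of UMI counts per gene and barcode, not normalized. In it, 1102 of 20649 genes had no UMI and the highest mitochondrial share of a barcode was 9.99%. Doublets were not called here. Barcode suffixes 3 to 8 matched no label, so the comparison of the treatments that had been planned was not run, and 0 columns of per-sample values were left unused.

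UMIs were summed per class and library and divided by all UMIs of that class. Exact Poisson intervals, and exact conditional intervals for ratios, at 95% were computed in Python 3.11.15 with numpy 2.4.6, scipy 1.17.1 and pandas 2.3.3, and figures were drawn with matplotlib 3.10.9. They cover counting error only. A gene was compared when it had at least 0.1 UMIs per 10000 on one side, and counted as higher or lower at 1.5-fold with the same direction in each library with at least 20 barcodes on both sides. Treg calls rest on the fold alone, except with Csf1r- or Adgre1-carrying barcodes let in, when 4 libraries held 20. The procedure was tested on simulated data. For correlations, macrophage barcodes were thinned to 3000 UMIs, and 44 shallower ones were left out. Genes described by library are those counted, at most the 8 with the widest ratios in each direction, and the most abundant. A further planned comparison within macrophages is not reported here. The genes, lists and classes were chosen with earlier results of these data known. Alternatives changed the gates, the depth, the denominator, the weighting, the fold and the minimum, or left out a library.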

Additional observations from a re-analysis of the deposited data

Results flagged for a closer look

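Of 34 levels in macrophages tested, 10 had 1 library far from the other 5. Chance flags about 1 in 20 of separate levels, but these are not separate, since the sum holds the single genes and 5 of the 10 are the same low library. The libraries mix unknown treatments and are not replicates of a group. Library 5 was low for the sum of the 33 genes, at 97.5 UMIs per 10000 with the nearest library at 127.8. It was also low for the transporter Slc2a1 (0.915, nearest 1.5), Aldoa (6.08, nearest 9.41), Gapdh (20.3, nearest 31.4) and Pkm (11.5, nearest 15.8). The lactate exporter Slc16a3 was high in library 6, at 2.56 with the nearest at 1.58. Vegfa, at 2.41 (nearest 1.85), and Ddit4, at 0.253 (nearest 0.141), were high in library 3. Pfkp was high in library 4 (1.81, nearest 1.64), and Slc2a3 in library 8 (0.0559, nearest 0.0361).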

How the results depend on the processing

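Of 150 alternative values for 11 log2 ratios and correlations, 121 moved by less than the spread between libraries and 29 by more. No paired analysis was possible because no label ties a barcode's library to a tumor or treatment, which concerns the treatments alone, since classes were compared within libraries. For the same reason the planned treatment fits (edgeR, DESeq2, filters, replicates left out) were not run. The log2 ratios of the sum given above as defined were 0.64 (Mmp12-high), -0.34 (C1qa-high), -0.17 (Ly6c2-high), 0.04 (Rsad2-high), -0.02 (S100a9-high), -0.89 (dendritic), -0.26 (CD8 T), -0.44 (Treg), -0.72 (NK) and 0.70 (Nos2). With gates read on barcodes thinned to 3000 UMIs they became 0.52 for Mmp12, -0.25 for C1qa, 0.11 for Ly6c2, 0.22 for Rsad2, 0.10 for S100a9-high, -0.51 for dendritic, 0.037 for CD8 T, 0.0077 for Treg and -0.22 for NK. These gates left 1 library with 20 barcodes for Mmp12, Rsad2 and dendritic and 3 for Ly6c2, so the libraries that set a call changed too. With equal weight per gene they were -0.49 for C1qa, 0.10 for S100a9-high, -0.63 for dendritic, -0.44 for CD8 T and -0.30 for Treg. Without mitochondrial and ribosomal genes in the denominator they were -0.00018 for CD8 T, -0.36 for Treg and -0.49 for NK. With Csf1r- or Adgre1-carrying lymphocytes they were -0.13 for CD8 T, -0.035 for Treg and -0.20 for NK. From macrophages with no neutrophil-marker UMI they were 0.76 for Mmp12, -0.032 for Ly6c2 and 0.83 for Nos2, and with no dividing-marker UMI -0.32 for Ly6c2, both settings chosen after seeing the data. Taking the 90th percentile gave 0.80 for Mmp12, states high whatever the other genes gave -0.20 for C1qa, and a macrophage gate of 6 UMIs gave 0.045 for S100a9-high. Leaving out a library moved Treg from -0.51 (without library 8) to -0.31 (without library 6), and kept Mmp12 at 0.61 to 0.69 and Nos2 at 0.70 to 0.71. At 2-fold in place of 1.5-fold, 9 of 19 genes higher for Mmp12 were counted, 8 of 20 for Nos2, 1 of 3 for S100a9-high and 2 of 4 for dendritic, 0 for Ly6c2 and Rsad2, and 7 of 13 lower for C1qa and 9 of 16 for Treg. Thinned gates gave 5 higher for Rsad2 and 2 for Ly6c2, and 8, 5 and 6 lower for CD8 T, Treg and NK. A gate of 6 UMIs gave 5 higher for S100a9-high, 0 for Rsad2 and 1 lower for Ly6c2. With Csf1r- or Adgre1-carrying lymphocytes 1, 0 and 0 were lower for CD8 T, Treg and NK, and 3 higher for Treg. The libraries with 20 barcodes were then 5, 4 and 6 in place of 4, 0 and 5. The rule for a call thus changed together with the gate, most for Treg, whose calls otherwise rest on the fold alone. The remaining changed counts, for Ly6c2 and Rsad2, were of at most 3 genes. The cause of these moves was not tested. The sparse lymphocyte classes limit calls for genes under about 0.1 UMIs per 10000. In Treg barcodes this limit lies higher, as 3 UMIs of Ankrd37 stood for 0.168 per 10000 there.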
